A study of Mus musculus with 16 samples.

Results

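The genes described here are 6 neighbours on mouse chromosome 1, namely 3110045C21Rik, Atf6, Dusp12, Cfap126, Pcp4l1 and Tomm40l in their order along the chromosome. They were chosen by their difference between Gcn2 knockout and Gcn2 wild-type livers, so that difference is given for them as a description with no test. They are 6 of the 18193 genes with a probe set on the array, and 11 of its 45101 probe sets are annotated to them. All 6 were bright enough to be among the 10916 genes tested.

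Global Gcn2-/- mice (knockout) and their wild-type littermates (Gcn2+/+), 3 to 6 months old, gave livers that were perfused in a single pass. The perfusate lacked methionine (-Met) or held the complete set of amino acids (+Met). RNA was taken from polysomes, the part of a sucrose gradient that holds mRNA bound to several ribosomes, or from the liver supernatant before the gradient (unfractionated). The 8 groups were thus knockout and wild-type livers in -Met polysome, +Met polysome, -Met unfractionated and +Met unfractionated RNA, with 2 Affymetrix arrays each. Each array held the pooled RNA of 2 livers. Arrays of equal number shared deviations between the fractions and were taken as one pool, which the labels do not state. Under that reading the 8 arrays of a genotype stand for 4 pools. A p-value then measures the spread between arrays, which is not all spread between pools. The deletion was in every cell type of the animal, and the labels name no strain background.

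Gcn2 is a kinase that is activated by uncharged tRNA when an amino acid is short and phosphorylates the translation factor eIF2, which favours translation of the transcription factor ATF4. Atf6 encodes another stress sensor, a membrane protein of the endoplasmic reticulum that is cut by proteases in the Golgi when unfolded proteins build up, releasing a factor that induces chaperones such as Hspa5. In the rest of the block, Dusp12 encodes a dual-specificity phosphatase, Cfap126 a protein of cilia that helps to place basal bodies, Pcp4l1 a small protein related to the calmodulin regulator Pcp4, and Tomm40l a relative of the protein import channel of the outer mitochondrial membrane. 3110045C21Rik is annotated as a long non-coding RNA. The gene for Gcn2, Eif2ak4, lies on chromosome 2.

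The RefSeq promoter table (build GRCm38.p6) held windows for 3110045C21Rik, Dusp12, Cfap126 and Pcp4l1 and none for Atf6 and Tomm40l. These were 6 windows in all, since Cfap126 had 3 start sites there. The 250 bases before the start are shown for 3110045C21Rik and for the first window of Cfap126, the genes with the widest genotype differences, and for Asns, a target of ATF4 whose signal was also far lower in knockout livers. The 3110045C21Rik window is at chr1:169969159-169969408 on the plus strand, the Cfap126 window at chr1:171113736-171113985 on the plus strand and the Asns window at chr6:7693210-7693459 on the minus strand. Capitals mark the amino acid response element that ATF4 binds with CEBP factors, searched as TGATGNAA on both strands.
3110045C21Rik: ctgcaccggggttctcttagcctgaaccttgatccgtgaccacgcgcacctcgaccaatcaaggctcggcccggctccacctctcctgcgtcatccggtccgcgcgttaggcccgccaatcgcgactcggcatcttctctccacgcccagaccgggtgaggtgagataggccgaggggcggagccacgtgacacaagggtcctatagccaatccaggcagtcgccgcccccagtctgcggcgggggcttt
Cfap126: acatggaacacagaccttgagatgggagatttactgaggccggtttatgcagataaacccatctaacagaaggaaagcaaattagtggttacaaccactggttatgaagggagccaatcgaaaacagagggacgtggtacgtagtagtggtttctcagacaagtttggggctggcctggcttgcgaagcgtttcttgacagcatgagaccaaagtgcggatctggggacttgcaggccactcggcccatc
Asns: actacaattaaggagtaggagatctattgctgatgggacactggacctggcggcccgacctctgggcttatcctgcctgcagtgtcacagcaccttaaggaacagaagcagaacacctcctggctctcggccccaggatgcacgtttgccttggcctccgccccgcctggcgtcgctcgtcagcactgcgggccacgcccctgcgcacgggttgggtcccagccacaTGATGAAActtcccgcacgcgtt

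In Asns the element begins 23 bases before the start. Of the other ATF4 targets called by genotype, Chac1, higher in knockout livers, and Trib3, lower in them, had 1 match each, while Atf5 and Gpt2, both lower in them, had 0. The element was found in 0 of the 6 windows of the block, which run from 250 bases before to 50 after a start, and in 3.97% of the 32851 windows of the table. The ATF6 site, searched as TGACGTGG on both strands, was likewise in 0 of the 6 windows and in 0.676% of all. The ER stress response element, a longer motif searched on both strands, was in 0 of the 6 and in 0.119% of all. These matches describe letters in these windows alone.

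Signals below are the deposited linear Affymetrix signals after each array was divided by its relative median. They are in arbitrary units, and single arrays moved by -0.29 to 0.31 on the log2 scale. Deposited array medians ran between 18.3 and 27.7, and between 26.9% and 28.5% of probe sets reached a signal of 80. Replicate arrays correlated at r = 0.968 to 0.975 across genes. Fold changes are differences of log2(signal + 16), which understate changes of dim genes. Eif2ak4 itself read 17.9 to 51.7 in knockout arrays (median 46.0) and 51.3 to 115 in wild-type arrays (median 91.1), a log2 fold change of -0.89 ± 0.17 (SE, limma adjusted p = 0.0036). The labels do not place its probe set inside or outside the deleted part.

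In the block, 5 genes were lower and 1 was higher in knockout livers. Among all genes tested, 1.73% were called lower and 0.852% higher at an adjusted p under 0.05 (limma, Benjamini-Hochberg). Because the same contrast chose the genes, nothing is read from the count. Fewer cells of a type and less RNA per cell cannot be told apart in bulk liver RNA.

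3110045C21Rik was near the floor of the signal in most knockout arrays. It read 4.70 and 37.4 in knockout and 48.9 and 69.5 in wild-type -Met polysome RNA, and 21.5 and 31.1 in knockout and 112 and 93.0 in wild-type +Met polysome RNA. In unfractionated RNA it read 3.27 and 6.04 in knockout and 82.9 and 70.3 in wild-type -Met livers, and 21.3 and 5.62 in knockout and 86.7 and 98.7 in wild-type +Met livers. The highest knockout array lay under the lowest wild-type array, and 6 of 8 knockout arrays were dimmer than 22.6, the mean of the array medians. The log2 fold change was -1.69 ± 0.20 (SE, 8 arrays of 4 pools per genotype).

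Cfap126 had the widest difference of the block. It read 7.25 and 24.3 in knockout and 70.2 and 99.3 in wild-type -Met polysome RNA, and 18.9 and 2.59 in knockout and 111 and 125 in wild-type +Met polysome RNA. In unfractionated RNA it read 9.12 and 14.6 in knockout and 155 and 76.1 in wild-type -Met livers, and 16.2 and 20.7 in knockout and 107 and 165 in wild-type +Met livers. The genotypes did not overlap in any medium or fraction, and 7 of 8 knockout arrays were dimmer than the mean array median. The log2 fold change was -2.10 ± 0.20. The brightest probe sets of these 2 genes were those whose 8 knockout arrays all lay below the 8 wild-type arrays, which held for 0.321% of all genes tested. The reverse, all knockout arrays above all wild-type arrays, held for 0 genes of the block and 0.192% of all.

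Ciliated cell markers overlapped between the genotypes. The summed signal of 6 such markers (Foxj1, Tekt1, Rsph1, Dnah5, Cfap43 and Cfap52) was 74.8 to 144 in knockout arrays (median 119) and 34.8 to 123 in wild-type arrays (median 108). Foxj1, the master regulator of motile cilia, had median signals of 3.15 in knockout and 6.09 in wild-type arrays, both among the dimmest signals of the array. Of the 2 markers bright enough to test, 0 were called by genotype in limma and 0 had an unadjusted p under 0.05.

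Atf6 was represented by 3 probe sets, and the knockout median was the lower one for each. The brightest, 1435444_at, read 89.6 and 62.1 in knockout and 149 and 123 in wild-type -Met polysome RNA, and 98.8 and 104 in knockout and 228 and 125 in wild-type +Met polysome RNA. In unfractionated RNA it read 65.6 and 31.7 in knockout and 118 and 71.7 in wild-type -Met livers, and 53.8 and 65.6 in knockout and 135 and 109 in wild-type +Met livers. Knockout arrays were lower than both wild-type arrays of the same medium and fraction throughout, although the ranges over all arrays overlapped because the 3 highest knockout arrays, all from polysome RNA, exceeded the lowest wild-type array. The log2 fold change was -0.77 ± 0.16 for this probe set, -0.67 ± 0.18 for 1456021_at and -0.38 ± 0.23 for 1453288_at. The last read 9.09 to 90.3 in knockout arrays (median 63.2) and 51.3 to 110 in wild-type arrays (median 71.0), so most of its values overlapped.

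The 3 probe sets of Dusp12 differed from each other. The brightest, 1420636_a_at, read 155 to 320 in knockout arrays (median 220) and 276 to 548 in wild-type arrays (median 353), a log2 fold change of -0.75 ± 0.14. The dimmer 1441436_at read 4.50 to 36.6 in knockout arrays (median 13.6) and 54.4 to 102 in wild-type arrays (median 77.1), with no overlap and a log2 fold change of -1.53 ± 0.24. The dimmest, 1430891_at, read 1.85 to 32.8 in knockout arrays (median 21.4) and 1.51 to 29.3 in wild-type arrays (median 24.9), a log2 fold change of -0.06 ± 0.21. One probe set thus separated the genotypes fully, another in part, and the dimmest did not. Where the probes lie and whether sequence variants between the genotypes lie under them was not looked at, so for all 6 genes a difference in signal is not shown to be one in RNA. In -Met polysome RNA the brightest probe set overlapped, at 195 and 320 in knockout and 276 and 334 in wild-type livers.

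Pcp4l1 was the gene of the block that was brighter in knockout livers. It read 48.9 and 115 in knockout and 42.2 and 57.8 in wild-type -Met polysome RNA, and 89.8 and 130 in knockout and 39.5 and 25.3 in wild-type +Met polysome RNA. In unfractionated RNA it read 73.0 and 95.8 in knockout and 72.2 and 27.1 in wild-type -Met livers, and 104 and 87.8 in knockout and 59.3 and 35.2 in wild-type +Met livers. Of 8 knockout arrays, 7 were above all wild-type arrays, and the log2 fold change was 0.85 ± 0.19.

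**Figure D1:**
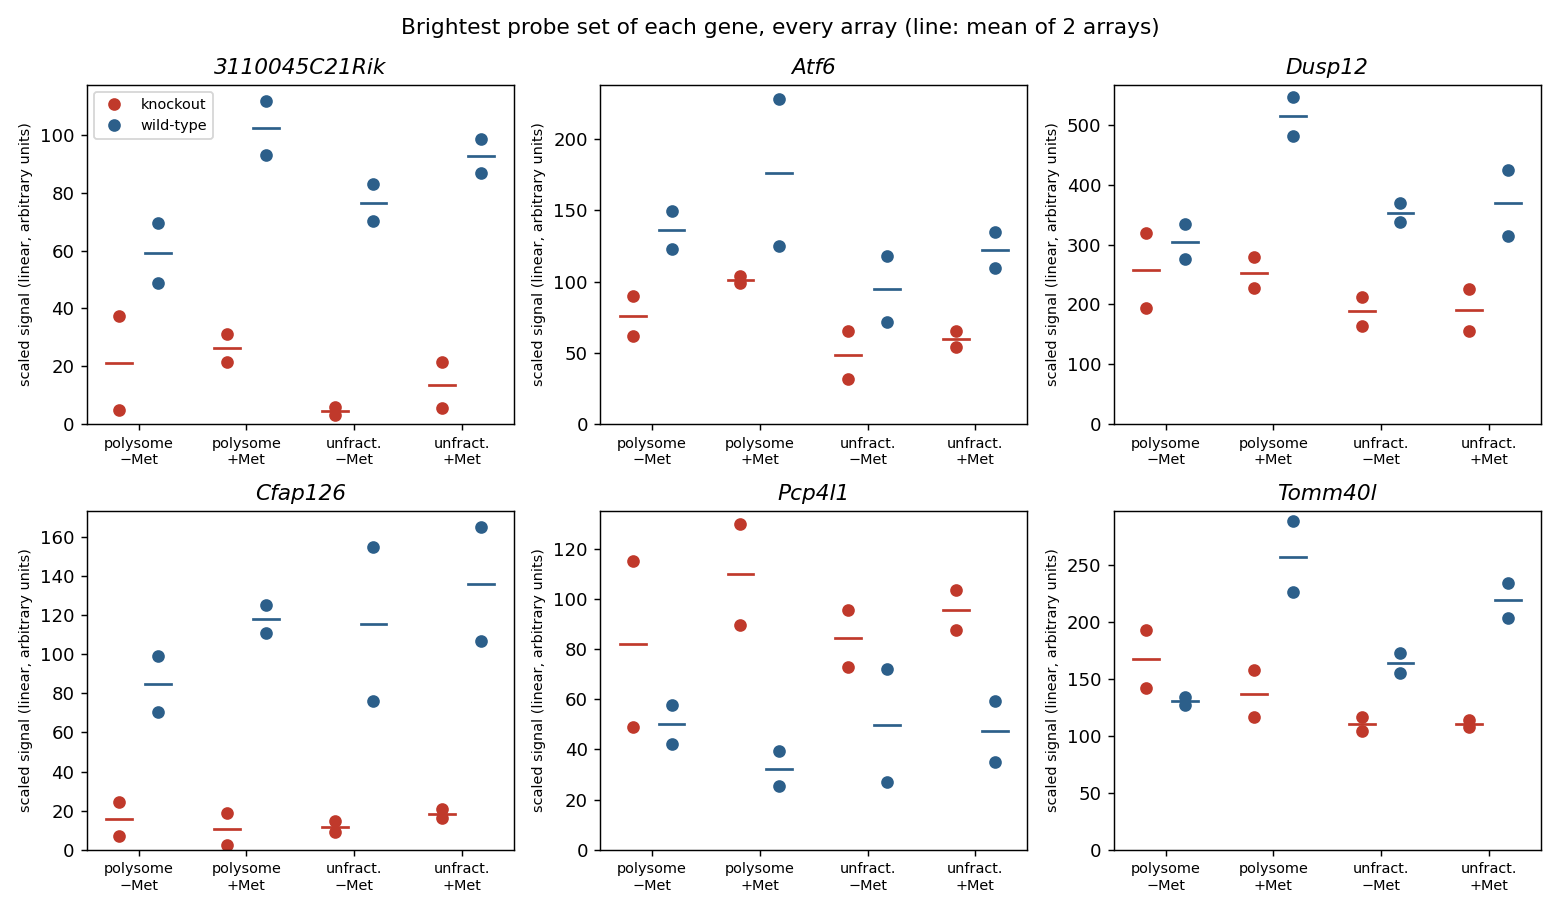
Scaled signal (arbitrary units, linear axis) of the brightest probe set of each of the 6 genes in every array, with knockout arrays in red left of wild-type arrays in blue and a line at the mean of the 2 arrays of a group. 3110045C21Rik and Cfap126 have no overlap between genotypes, Pcp4l1 is the gene that is brighter in knockout livers, and Tomm40l is higher in knockout livers in -Met polysome RNA alone.

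Tomm40l lay closest to the threshold that chose the block, with a log2 fold change of -0.48 ± 0.13, and its difference changed direction between groups. Tomm40l read 142 and 193 in knockout and 127 and 134 in wild-type -Met polysome RNA, where both knockout arrays were the higher ones. With the signals as deposited, Tomm40l overlapped between the genotypes there. It read 117 and 157 in knockout and 288 and 226 in wild-type +Met polysome RNA, 116 and 104 in knockout and 172 and 155 in wild-type -Met unfractionated RNA, and 114 and 108 in knockout and 203 and 235 in wild-type +Met unfractionated RNA. In those other groups both knockout arrays were the lower ones. A second, dimmer probe set, 1455614_at, read 24.8 to 50.4 in knockout arrays (median 34.9) and 21.4 to 45.0 in wild-type arrays (median 31.8), a log2 fold change of 0.10 ± 0.19. With the mean of both probe sets the difference was -0.19 ± 0.09. Without the 2 wild-type -Met polysome arrays it was -0.75 ± 0.15, a mean that leaves out the whole genotype comparison in -Met polysome RNA. On leaving out single arrays it ran between -0.53 and -0.43, and Tomm40l missed the threshold without 14 of the 16 arrays in turn. Tomm40l missed the threshold with the mean of probe sets, no filter on dim genes, no variance trend or the pool as a random block. It also missed it with unfractionated, polysome or -Met arrays alone. It passed with signals as deposited, quantile normalization, either other pseudocount and a minimum signal. It also passed with +Met arrays alone and without both wild-type -Met polysome arrays.

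Just outside the threshold lay Rgs5, a regulator of G-protein signalling among the flanking genes, at 0.58 ± 0.16 (limma adjusted p = 0.059). Farther from it was Nr1i3, the nuclear receptor CAR, between Pcp4l1 and Tomm40l, at 0.38 ± 0.13 (adjusted p = 0.17).

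In the authors' deposited table of z ratios, a difference of group means in units of its spread across probe sets, Cfap126 scored -4.66 in -Met polysome, -7.97 in +Met polysome, -6.50 in -Met unfractionated and -5.44 in +Met unfractionated RNA for knockout minus wild-type. The authors' deposited table also had the opposite sign for Tomm40l in -Met polysome RNA, at 0.37, against -1.54 in +Met polysome RNA. The dimmest probe set of Dusp12 and the dimmer one of Tomm40l are not listed in it.

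**Figure D2:**
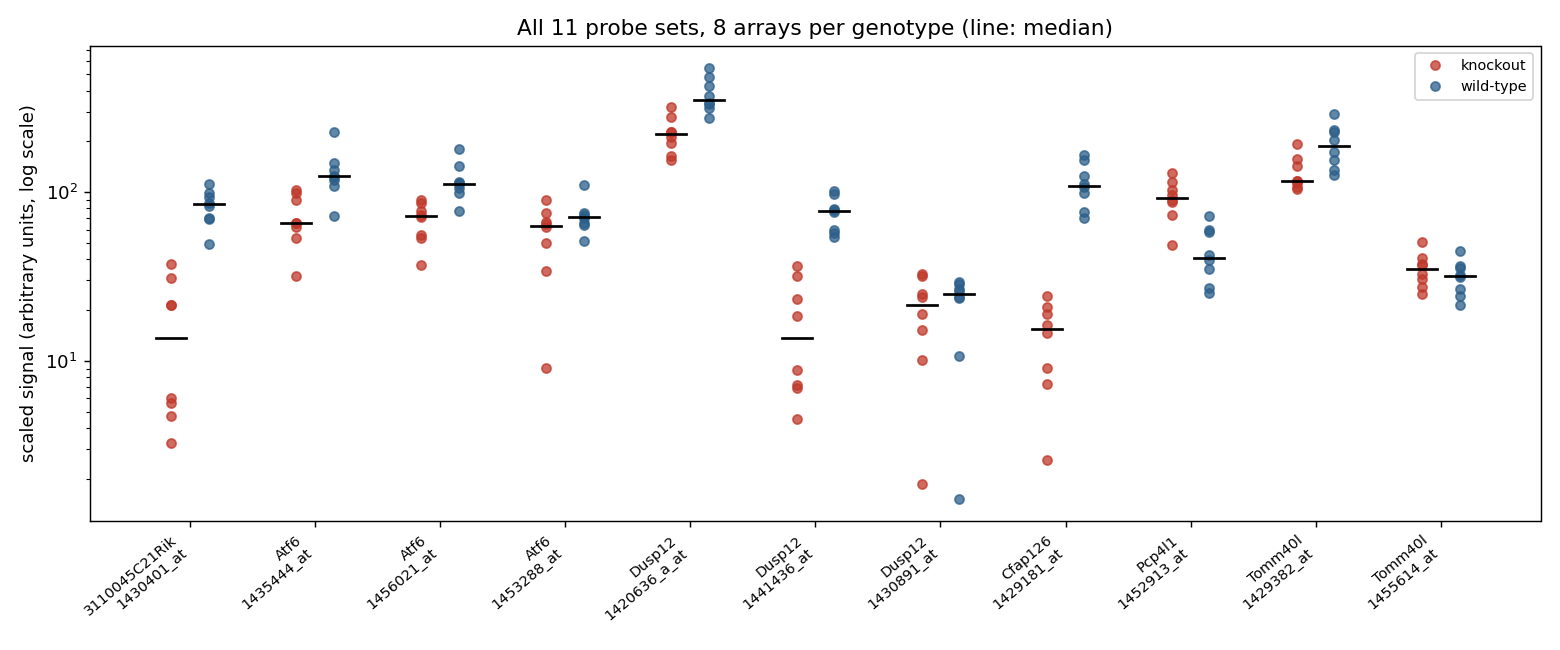
Scaled signal (arbitrary units, log axis) of all 11 probe sets of the block, with 8 knockout arrays in red left of 8 wild-type arrays in blue and a black line at each median. Probe sets of one gene differ, with 1441436_at of Dusp12 fully apart (medians 13.6 in knockout and 77.1 in wild-type arrays) and 1430891_at overlapping (medians 21.4 in knockout and 24.9 in wild-type arrays).

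The genes of the block are not an unbroken run. By gene order in the RefSeq table, 13 other genes with a probe set lie between 3110045C21Rik and Tomm40l, of which 7 were bright enough to test, and 0 of these 7 were called by genotype in limma, with 2 (Uap1 and Nr1i3) at an unadjusted p under 0.05, a cut that 13.8% of all genes tested passed. Beside the members lie Hsd17b7, a sterol synthesis enzyme, at -0.15 ± 0.15, the Fc receptor gene Fcgr3 at -0.13 ± 0.17, Sdhc, a subunit of succinate dehydrogenase, at -0.06 ± 0.13, and Apoa2, an apolipoprotein, at 0.03 ± 0.10. Sdhc lies between Cfap126 and Pcp4l1, which have the lowest and the highest log2 fold change of the block. Ddr2, Olfml2b and Fcrla, which also lie beside members, were too dim to test.

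Of 10 tested genes on each side of the block, 0 of 20 were called by genotype in limma. At an unadjusted p under 0.05 there were 4 of the 20, against 13.8% of all genes tested. The log2 fold changes of these 20 ran between -0.39 and 0.58 with a median of -0.08, against -0.06 for all genes tested. On the whole of chromosome 1, 14 of 607 tested genes were called, 3 higher and 11 lower in knockout livers, which includes the 6 genes of the block. Without the block, 2 of 601 were called higher and 6 lower, against 0.852% and 1.73% of all genes tested. With the signals as deposited, Uap1 at 0.45 ± 0.11 (adjusted p = 0.031), Nr1i3 at 0.45 ± 0.09 (adjusted p = 0.0087) and Rgs5 at 0.65 ± 0.12 (adjusted p = 0.0055) also passed in limma, all higher in knockout livers. Uap1, an enzyme of amino sugar synthesis, is named after its value was seen.

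Around Eif2ak4 on chromosome 2, 1 of the 20 nearest tested genes was called lower in limma, against 1.73% of all genes tested. The called gene was Ccdc32, named after its value was seen, at -0.75 ± 0.13 (adjusted p = 0.0016). The labels do not state which stretches of the genome around the deleted gene, or elsewhere, differ in origin between the genotypes. Whether the block's differences come with linked alleles or with loss of Gcn2 was not tested.

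**Figure D3:**
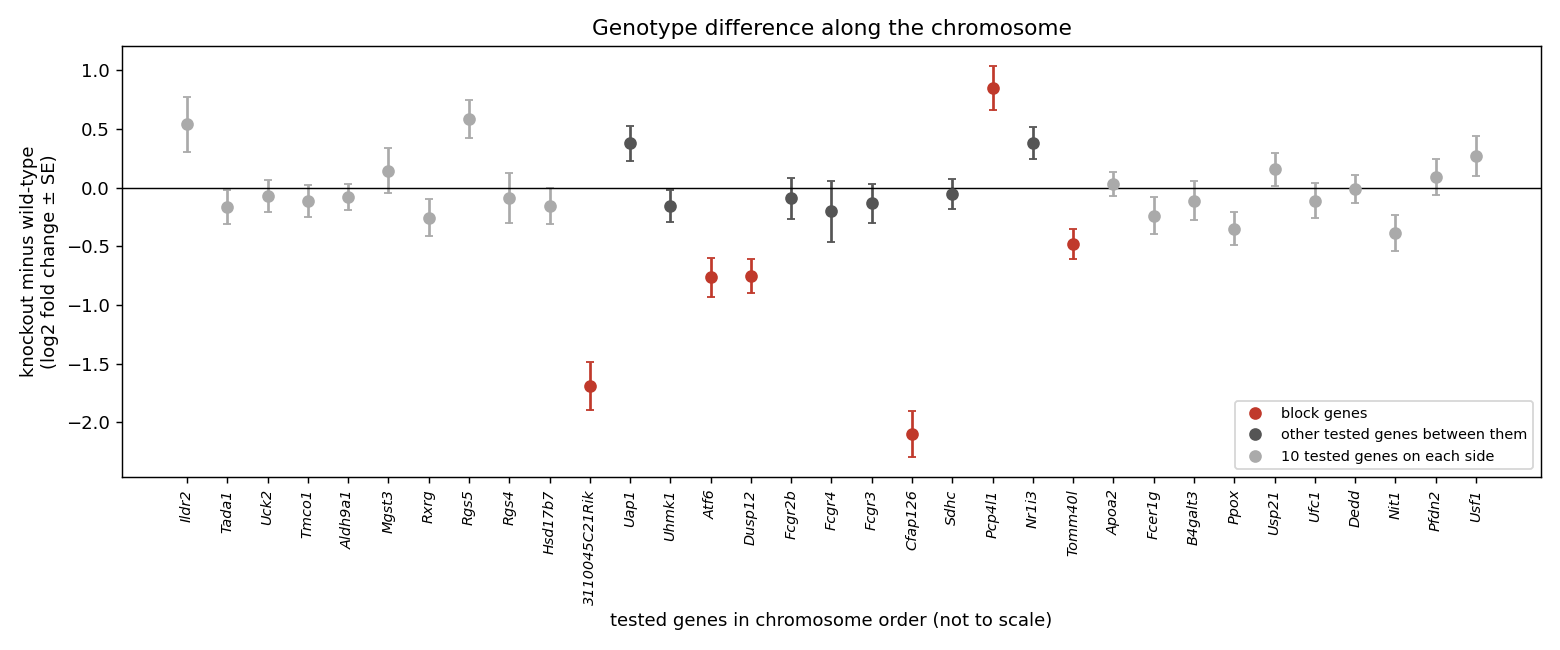
Log2 fold change (knockout minus wild-type, bars are the SE) of the tested genes in chromosome order, with the 6 genes of the block in red, the 7 other tested genes between them in dark grey and 10 tested genes on each side in light grey. Red points run between -2.10 (Cfap126) and 0.85 (Pcp4l1), and the grey points between -0.39 and 0.58.

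The response to methionine is independent of the contrast that chose the block. Over all arrays, 0 of the 6 genes were called for -Met minus +Met in limma, where 0.724% of all genes tested were. The log2 fold changes ranged between -0.42 ± 0.20 for 3110045C21Rik (adjusted p = 0.27) and -0.04 ± 0.19 for Pcp4l1 (adjusted p = 0.93). All 6 were below 0, as was the median of all genes tested at -0.13, but with the signals as deposited that median was -0.0024 and Pcp4l1 was above 0. At an unadjusted p under 0.05, 0 of the 6 passed, against 18.7% of all genes.

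Within each genotype the block again had 0 calls in limma, with 0 genes in knockout livers and 1 in wild-type livers at an unadjusted p under 0.05, a cut that 7.47% of all genes passed in knockout and 20.8% in wild-type livers. Of all genes tested, calls were 0.0824% in knockout and 1.52% in wild-type livers. The gene nearest to a call was Tomm40l in wild-type livers, where its log2 fold change was -0.64 ± 0.18 (limma adjusted p = 0.071). The median of all genes tested in wild-type livers was -0.20, and 0.0023 with the signals as deposited. In knockout livers Tomm40l was at 0.13 ± 0.18 (limma adjusted p = 0.94). The difference of the Tomm40l responses, 0.76 ± 0.26 with a 95% interval of 0.23 to 1.30, did not pass (adjusted p = 0.33), though its unadjusted p was 0.0069. The same difference had a median of 0.15 over all genes tested, which was -0.0085 with the signals as deposited. For Tomm40l it was 0.38 ± 0.36 without the 2 wild-type -Met polysome arrays, a value that rests on unfractionated RNA alone. Of all genes tested, 0.192% were called for a difference of methionine responses between genotypes, and 0 genes of the block. For Atf6 this difference was -0.0048 with a 95% interval of -0.68 to 0.67, so a change of either sign up to that size could not be told from 0.

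Atf6 was the gene of the block that was called between RNA fractions. Its signal was higher in polysome than in unfractionated RNA, with a log2 fold change of 0.52 ± 0.16 (limma adjusted p = 0.026), and the mean of each polysome group was above that of its unfractionated counterpart. It was 1 of the 6 genes called over all arrays, where 21.3% of all genes were called and 9.61% were called higher, and nothing about the block is read from a count of 1. The other probe sets of Atf6 had values of 0.20 ± 0.18 and 0.36 ± 0.23. The call was lost with the mean of the 3 probe sets (0.36 ± 0.15, adjusted p = 0.12) with no filter on dim genes (adjusted p = 0.070) and without both wild-type -Met polysome arrays (adjusted p = 0.058). It was also lost, at adjusted p of 0.050 to 0.077, on leaving out 7 of the 16 arrays in turn. These were knockout -Met polysome 1, knockout -Met unfractionated 2, knockout +Met unfractionated 1, wild-type -Met polysome 1, wild-type +Met polysome 1, wild-type -Met unfractionated 2 and wild-type +Met unfractionated 2.

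Within knockout livers Atf6 was at 0.59 ± 0.23 (limma adjusted p = 0.11) and within wild-type livers at 0.46 ± 0.23 (adjusted p = 0.26). With the pool as a fixed replicate block the value in knockout livers had an adjusted p of 0.038. In the fit with no block, 0 of the 6 genes were called in knockout livers, against 8.87% of all genes, and 0 in wild-type livers, against 7.47%. At an unadjusted p under 0.05 there were 3 in knockout livers (3110045C21Rik, Atf6 and Tomm40l) and 0 in wild-type livers, against 26.2% of all genes in knockout and 21.4% in wild-type livers. The values of 3110045C21Rik and Cfap126 within knockout livers, for the fraction and for methionine, rest on signals mostly below the mean array median, since both genes are bright in wild-type arrays alone. The difference of polysome effects between genotypes was called by limma for 0 genes of the block and 0% of all genes, with 717 genes at an unadjusted p under 0.05. In the block it ranged between 0.10 ± 0.40 for Cfap126 and 0.72 ± 0.41 for 3110045C21Rik (95% interval -0.13 to 1.57).

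**Figure D4:**
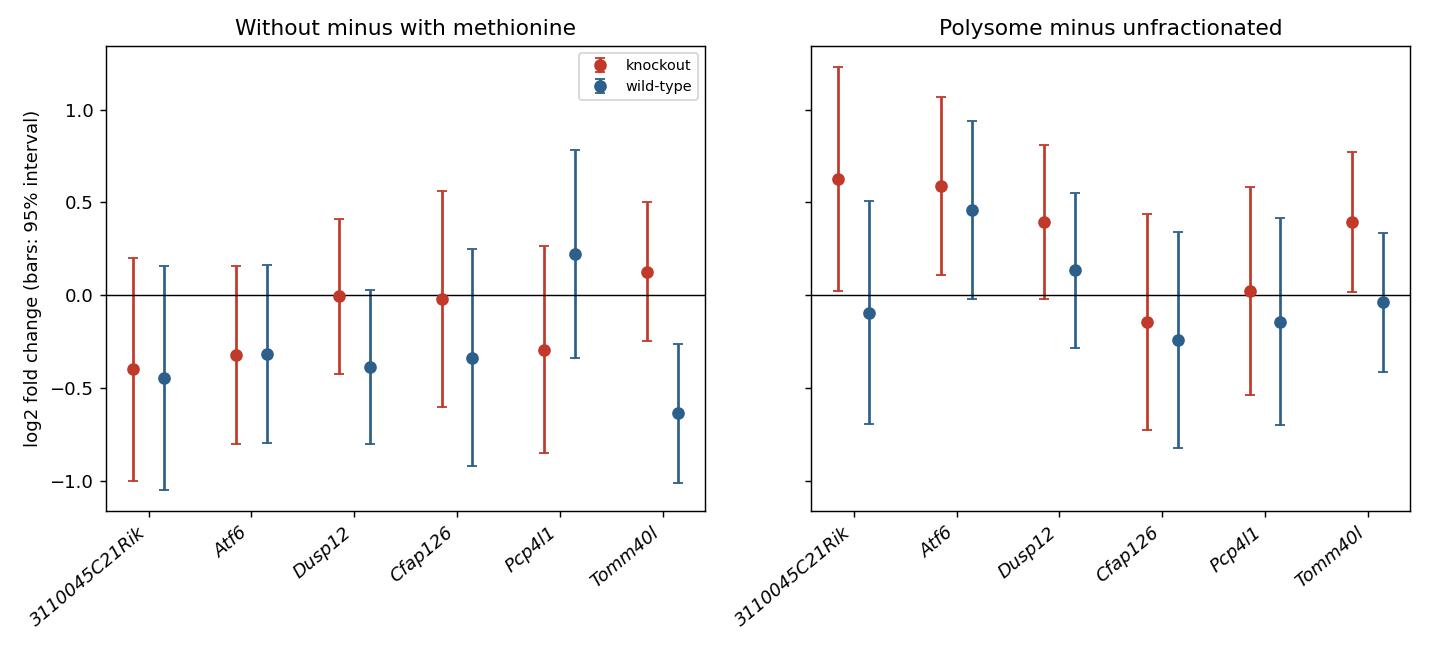
Log2 fold change with its 95% interval for -Met minus +Met (left) and polysome minus unfractionated (right), knockout livers in red left of wild-type livers in blue, for the 6 genes. The Tomm40l interval in wild-type livers lies below 0 for methionine (-1.01 to -0.26), where the median of all genes tested was -0.20. For the fraction in knockout livers the intervals of 3110045C21Rik (mostly signals near the floor), Atf6 (0.11 to 1.07) and Tomm40l lie above 0. None of these was called after adjustment.

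Among genes that ATF6 is known to induce, values lay on both sides of 0 by genotype. Of 22 such genes, all tested, 0 were called in limma, with 2 at an unadjusted p under 0.05, and 11 values were positive and 11 negative. Their median log2 fold change was -0.01, against -0.06 for all genes, and 0.05 with the signals as deposited, against 0.0022 for all genes. Hspa5, the main chaperone of the endoplasmic reticulum, read 2610 to 6287 in knockout arrays (median 4185) and 2509 to 6809 in wild-type arrays (median 4013), a log2 fold change of 0.10 ± 0.12 (adjusted p = 0.79). Hsp90b1, another chaperone there, was at 0.03 ± 0.12 (adjusted p = 0.96). Over both genotypes, omission of methionine raised 1 of the 22, the disulfide isomerase Pdia6, by 0.71 ± 0.14 (adjusted p = 0.020). For methionine, 17 of the 22 values were positive and 5 negative, with a median of 0.11 against -0.13 for all genes. With the signals as deposited these medians were 0.25 and -0.0024. At an unadjusted p under 0.05 there were 7, in either direction, against 18.7% of all genes.

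In polysome against unfractionated RNA, 5 of the 22 fell and 0 rose in limma, where 11.7% of all genes fell. They were Hspa5 (-0.78 ± 0.12), the calcium-binding chaperones Calr (-0.43 ± 0.13) and Canx (-0.40 ± 0.11), Hsp90b1 (-0.43 ± 0.12) and Herpud1 (-0.39 ± 0.14), at adjusted p of 8.9e-05 to 0.047. The list's median was -0.25, against 0.00 for all genes.

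Among 7 genes of other stress sensors and of the proteases that cut ATF6, 1 was lower in knockout livers, Eif2ak4 itself, and 0 were higher. Among 12 tested genes of the outer mitochondrial membrane listed with Tomm40l, namely 9 of protein import and assembly and the metabolite channels Vdac1, Vdac2 and Vdac3, 0 were called by genotype in limma and 0 had an unadjusted p under 0.05, with values between -0.24 and 0.18. In polysome RNA 2 of these 12 fell, a share near that of all genes. They were the receptor Tomm20 by 0.60 ± 0.13 (limma adjusted p = 0.0024) and the small subunit Tomm7 by 0.58 ± 0.13 (adjusted p = 0.0037). Both had an unadjusted p under 0.05 for the fraction in wild-type livers and not in knockout livers. Their difference of polysome effects between genotypes was 0.78 ± 0.26 for Tomm20 (limma adjusted p = 0.53) and 0.92 ± 0.27 for Tomm7 (adjusted p = 0.47), neither called.

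Of 22 tested targets of ATF4, 4 were lower and 1 higher in knockout livers. Asparagine synthetase, Asns, was at -3.35 ± 0.17 (limma adjusted p = 1.0e-11), the transcription factor Atf5 at -1.10 ± 0.17 (adjusted p = 0.00048), the pseudokinase Trib3 at -0.85 ± 0.18 (adjusted p = 0.0081) and Chac1, an enzyme that degrades glutathione, at 0.72 ± 0.15 (adjusted p = 0.0085). The alanine aminotransferase Gpt2, the remaining one of the 5, was at -0.59 ± 0.14 (adjusted p = 0.024). For the difference of methionine responses between genotypes, 1 of the 22 passed in limma, the stress protein Nupr1, at 2.52 ± 0.52 (adjusted p = 0.049). Nupr1 was dim, at 8.12 to 83.1 in knockout arrays (median 41.3) and 3.69 to 105 in wild-type arrays (median 26.0). Its lowest values lay below 22.6, the mean of the array medians.

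Among markers of other cells, 1 Kupffer cell marker and 1 lymphocyte marker were called by genotype. The summed signal of 8 Kupffer cell markers was 617 to 1499 in knockout arrays (median 989) and 694 to 2222 in wild-type arrays (median 1627), which overlapped. Of 6 tested, 1 was called lower, Cd5l at -1.24 ± 0.14 (limma adjusted p = 4.3e-06). All 6 had negative values, as did 6753 of all 10916 genes tested, and their median was -0.33, against -0.06 for all genes. At an unadjusted p under 0.05 there were 3 (Cd5l, Vsig4 and C1qb), a cut that 13.8% of all genes passed. The summed signal of 5 lymphocyte markers was 499 to 2324 in knockout arrays and 27.9 to 434 in wild-type arrays, which was mostly Ighm, at 3.27 ± 0.30 (adjusted p = 3.5e-07). The other 4 lymphocyte markers were too dim to test, and their signals overlapped. Knockout and wild-type medians were 6.91 and 6.33 for Cd3e and 7.64 and 2.28 for Cd79a. They were 19.4 and 16.2 for Ms4a1, and 17.1 and 20.3 for Cd79b. Summed markers overlapped for endothelium (medians 569 in knockout and 585 in wild-type arrays), stellate cells (825 in knockout and 749 in wild-type arrays) and bile duct cells (128 in knockout and 124 in wild-type arrays), with 0 called in limma and 3 (Lrat, Dcn and Epcam) at an unadjusted p under 0.05. The summed signal of 7 hepatocyte markers was 107918 to 154533 in knockout and 108050 to 144560 in wild-type arrays, with 0 of 7 called by genotype in limma and 0 at an unadjusted p under 0.05. The part of cell composition in the block's differences was not tested.

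Within each genotype, over 8 arrays that share pools between fractions, the genes most like Atf6 were Prox1 (mean Pearson r of 0.963 over both genotypes), Nr5a2 (0.939) and Crkl (0.932). Those most like 3110045C21Rik were Coa6 (0.935), Tmem106c (0.934) and Mrps14 (0.921), where the knockout part rests on signals near the floor. In wild-type arrays alone these correlated with it at 0.961, 0.914 and 0.980. The genes most like either member were picked as the highest among all genes tested, over arrays that also differ in medium and fraction. A high r is thus built into the choice, and no test was made. Between the 15 pairs within the block, r ran between -0.41 (Atf6 and Cfap126) and 0.79 (3110045C21Rik and Dusp12) in knockout livers and between -0.38 (Dusp12 and Pcp4l1) and 0.94 (3110045C21Rik and Tomm40l) in wild-type livers. Pairs could differ between the genotypes, as 3110045C21Rik and Pcp4l1 did at 0.76 in knockout and -0.12 in wild-type livers, a difference that was not tested.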

How the data were processed

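The authors deposited an intensity for each of 45101 probe sets in 16 arrays, a linear Affymetrix signal whose mean after trimming 2% at each end was 150 in every array. Which algorithm made the signals the labels and headers do not say (not given in the sources used). Per the file headers, a second deposited table holds z ratios, a score for a difference between a pair of groups. Probe sets with 1 gene symbol were kept (34945), and the brightest stood for its gene.

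Each array was divided by its relative median, log2(signal + 16) was taken, and the dimmest 40% of genes were not tested. Means of the 8 groups were fitted with limma 3.58.1 in R 4.3.3 (two-sided, eBayes with a variance trend, 8 residual df). Benjamini-Hochberg adjustment ran over 10916 genes, with a threshold of 0.05. The method was tested on simulated data. Gene order and promoter windows came from RefSeq (GRCm38.p6). The files name no build.

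The 6 genes and all lists were chosen with earlier results of these data known. Named were the 6 genes, neighbours beside them, up to 4 called genes per list and comparison, Hspa5, Hsp90b1 and Eif2ak4, and 3 genes most like Atf6 and 3110045C21Rik. Gpt2 and Herpud1, beyond the 4 per list, were added to complete their counts. Arrays of the same number, genotype and medium shared deviations between fractions (r = 0.238, 0.219, 0.330 and 0.174), so equal numbers were treated as fractions of one pool, an inference from the data. Equal numbers also shared deviations between media in knockout unfractionated arrays (r = 0.251) and between genotypes in -Met unfractionated arrays (r = 0.138). The other values between media or genotypes ran between -0.06 and 0.05. Shared deviations thus need not mean a shared pool. Alternatives covered scaling, pseudocount, filter, probe set rule, variance trend, replicate blocks, subsets and single arrays left out.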

Additional observations from a re-analysis of the deposited data

Results flagged for a closer look

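After median scaling, Tomm40l moved in opposite directions between groups, with every array of a group on one side. With the signals as deposited, the genotypes overlapped in -Met polysome RNA, at 152 and 187 in knockout and 155 and 139 in wild-type livers. The values of Tomm40l that follow are after scaling. Its genotype difference (knockout minus wild-type, log2) was 0.31 in -Met polysome RNA and -0.84 in +Met polysome RNA, which differ by 1.15 ± 0.36 (SE, limma adjusted p = 0.35), so the difference did not pass the test. That contrast was added after the opposite directions were seen, and its median over all genes tested was 0.23. In -Met livers the genotype difference was 0.31 in polysome RNA and -0.51 in unfractionated RNA, and the same arrays gave a polysome effect of 0.53 in knockout and -0.29 in wild-type livers, both a difference of 0.82 that was not tested on its own. Opposite complete separations of this kind, 2 arrays against 2, were seen in 6.02%, 5.19% and 5.15% of all genes tested. Groups of 2 arrays were too small for a search for outlying arrays.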

How the results depend on the processing

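All 6 genes kept the direction of their genotype difference under 30 alternatives. Their log2 fold changes ran between -2.68 and -0.87 for 3110045C21Rik, -0.90 and -0.53 for Atf6, -0.94 and -0.56 for Dusp12, -3.07 and -1.17 for Cfap126, 0.53 and 1.11 for Pcp4l1 and -0.86 and -0.10 for Tomm40l. The genes past the threshold that chose them were 6 by construction. They were 5 with no variance trend, with the pool as a random block or with +Met arrays alone. They were 4 with the mean of probe sets or with no filter on dim genes. With unfractionated arrays alone there were 3, and with polysome or -Met arrays alone 2. In these fits Tomm40l passed with +Met arrays alone and in no other. With single arrays left out in turn, 5 to 6 genes passed, and Tomm40l missed in 14 of 16 such fits. These counts describe the choice and test nothing. Over all genes, 93 were called higher and 189 lower. Signals as deposited gave 222 higher and quantile normalization 241, which moved the share of calls that were higher to 48.4% and 48.2%, against 33.0%. Unfractionated arrays alone gave 23 higher and 55 lower, polysome arrays alone 75 higher and 55 lower, +Met arrays alone 44 higher and 103 lower, and -Met arrays alone 118 higher and 118 lower, so the excess of lower calls was not seen with polysome or -Met arrays alone. Without both wild-type -Met polysome arrays, an alternative chosen after seeing the data, 59 were higher. That fit holds no genotype comparison in -Met polysome RNA. Leaving out single arrays gave 117 lower (without wild-type -Met polysome replicate 2) to 291 lower (without knockout +Met unfractionated replicate 1), and 125 without knockout +Met unfractionated replicate 2.

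Between the members, 2 other genes were called with the signals as deposited and 2 with quantile normalization. In the flanks 1 was called with each of these, with the mean of probe sets (Nit1) and with a minimum signal of 80 (Rgs5), and 0 to 1 on leaving out single arrays. Of the ATF6 targets 1 was called with -Met arrays alone, Creld2. Eif2ak4 was not called, leaving 0 of its list, with the mean of probe sets, unfractionated, polysome or -Met arrays alone. Of the ATF4 targets 2 were called with unfractionated or polysome arrays alone and 3 with -Met arrays alone. For polysome minus unfractionated RNA the block had 2 calls with the signals as deposited and 0 with the mean of probe sets, with no filter or without both wild-type -Met polysome arrays, and 0 to 1 on leaving out single arrays. In knockout livers that count was 1 with the pool as a fixed replicate block and 0 to 1 on leaving out single arrays. The replicate block, as a random block with a correlation of 0.11, gave 88 higher and 163 lower by genotype over all genes and changed no other call of the 6 genes outside the genotype contrast.

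Values near 0 that were not called changed sign. Pcp4l1 for methionine was 0.071 as deposited, 0.022 with quantiles, 0.011 in polysome arrays and -0.166 to 0.092 without single arrays, and for fraction -0.190 to 0.069. Tomm40l for methionine in knockout livers was -0.0059 in unfractionated arrays. The genotype difference of methionine responses was, for 3110045C21Rik, -0.12 as deposited, -0.11 with quantiles and -0.47 with a pseudocount of 1. It was -0.23 in unfractionated arrays, the sole comparison left without both wild-type -Met polysome arrays, and -0.29 to 0.39 without single arrays. For Atf6 it was 0.038 with a pseudocount of 64, 0.069 in unfractionated arrays or without both arrays, and -0.20 to 0.19 without single arrays, and for Cfap126 -0.062 in unfractionated arrays or without both arrays. The genotype difference of polysome effects, without both arrays and so in +Met livers alone, was -0.080 for Dusp12 and -0.28 for Cfap126. For Cfap126 it was also -0.018 as deposited and -0.22 with a pseudocount of 1. Without single arrays it ran between -0.069 and 0.33 for Atf6, -0.13 and 0.32 for Cfap126, and -0.092 and 0.42 for Pcp4l1. The causes were not tested. Cfap126 and 3110045C21Rik in knockout arrays lie near the dimmest signals, and their extreme values came with pseudocounts of 1 and 64.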
